A study of Mus musculus with 8 samples.

Results

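The 6 genes described here are the trypsinogen paralogs *Prss2*, *Try4*, *Try5*, *Prss3* and *Gm10334*, and *Spink1*, which encodes the trypsin inhibitor that acinar cells store beside them. They were taken by their symbols from a count table of 19945 genes in 6959 islet-preparation cells, in which all 6 were listed, and they held 759148 UMIs (unique molecular identifiers, each counting 1 captured mRNA molecule). The cells came from 2 single-cell libraries of islets that had been handpicked from wild-type mice that were 6 to 12 weeks old when the experiments began. One library was from mice gavaged with the focal adhesion kinase inhibitor PF562271 (FAKi, 50 mg/kg, 2 doses per day for 3 weeks) and the other from vehicle-treated mice, and in both arms islets were collected 10 days after the last dose. Each library pooled 5 mice, and its 4 deposited samples are sequencing lanes, so that there is 1 library per condition and no test between conditions could be made. Confidence intervals (95% CI, exact) cover counting error only and say nothing of the variation between mice.

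Trypsinogens are made by pancreatic acinar cells, packed into zymogen granules and secreted into the gut, where enteropeptidase cuts off a short activation peptide. Trypsin in turn activates the other digestive zymogens. SPINK1 is a small Kazal-type inhibitor that occupies the active site of trypsin and limits activation inside the pancreas. Trypsinogen mRNAs are among the most abundant of the acinar cell, and mRNA freed from broken acinar cells during dissociation can be captured in droplets that hold other cell types.

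The deposited annotation has 17 clusters. Acinar cluster 1 held 161 vehicle and 297 FAKi cells, and acinar cluster 2 held 86 and 114 cells. The labels state that 8832 vehicle and 8437 FAKi cells went into sequencing, while the table holds 3776 and 3183, with 4 cell barcodes found in both libraries. All 6 acinar markers examined (*Cpa1*, *Cela1*, *Cpb1*, *Ptf1a*, *Bhlha15* and *Rbpjl*) had UMIs in both acinar clusters. They took 10.8% of the UMIs of acinar cluster 2 with vehicle and 10.0% with FAKi, and 7.07% and 5.51% of those of acinar cluster 1. The 6 β-cell markers (*Ins1*, *Ins2*, *Pdx1*, *Mafa*, *Nkx6-1* and *Iapp*) took 0.699% and 0.955% of the UMIs of acinar cluster 2, but 15.8% and 25.2% of those of acinar cluster 1. Acinar cluster 1 was also the shallower, with a median of 1480 (vehicle) and 1140 (FAKi) UMIs per cell against 7931 and 7280.5. Of 4 macrophage markers 2 or 3 were found in an acinar cluster of a library, with 4 to 15 UMIs in all and *Adgre1* at 0, and of 4 endothelial markers 3 or 4, with 5 to 23 UMIs. The ductal marker *Cftr* was at 0 in both acinar clusters, which held *Krt19*, *Sox9*, *Krt8*, *Krt18* and *Epcam* at a summed 176 to 289 CPM (UMIs of a gene scaled to the total of the group).

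In the mouse the trypsinogen genes lie in a tandem array within the T cell receptor β locus. On GRCm38 the 5 paralogs span 222.8 kb of chromosome 6 (chr6:41302269-41525079), with 3 other trypsinogen genes between them. *Try4* (chr6:41302269-41305532) and *Prss2* (chr6:41521787-41525079) are on the forward strand, and *Try5* (chr6:41311233-41316841), *Prss3* (chr6:41373814-41377678) and *Gm10334* (chr6:41442216-41446145) are on the reverse strand. Each has 5 exons and a coding sequence of 741 bases, and none overlaps another annotated gene. The library chemistry reads 98 bases near the 3′ end of a transcript, so the paralogs are told apart by that stretch. The last 98 coding bases of each paralog, all in its last exon, are shown because they are where a read can or cannot be assigned. Capitals mark the bases that differ from *Prss2*.
Prss2 (GRCm38 chr6:41524925-41525022, forward strand): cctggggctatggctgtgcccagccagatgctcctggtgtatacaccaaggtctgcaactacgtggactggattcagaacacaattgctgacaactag
Try4 (GRCm38 chr6:41305391-41305488, forward strand): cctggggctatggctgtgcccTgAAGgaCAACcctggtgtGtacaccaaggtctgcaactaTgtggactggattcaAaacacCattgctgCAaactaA
Try5 (GRCm38 chr6:41311277-41311374, reverse strand): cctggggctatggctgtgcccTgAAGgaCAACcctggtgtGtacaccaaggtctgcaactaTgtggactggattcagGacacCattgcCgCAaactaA
Prss3 (GRCm38 chr6:41373814-41373911, reverse strand): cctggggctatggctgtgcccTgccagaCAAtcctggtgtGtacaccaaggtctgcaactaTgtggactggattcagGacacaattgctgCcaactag
Gm10334 (GRCm38 chr6:41442271-41442368, reverse strand): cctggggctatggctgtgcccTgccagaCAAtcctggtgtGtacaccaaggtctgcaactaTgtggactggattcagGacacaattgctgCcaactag

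These ends separate *Prss2* from *Try4* at 15 of 98 bases and from *Try5* at 16, but *Try4* from *Try5* at only 3. *Prss3* and *Gm10334* were identical over all 98 bases. Over the whole coding sequence *Try4* and *Try5* shared 97.4% of bases, *Prss3* and *Gm10334* 99.1%, and *Prss2* and *Try4* 91.6%. Each transcript's last 400 bases were then cut into 303 overlapping stretches of 98 bases and searched for in the other trypsinogen transcripts. No stretch of *Prss2* was shared exactly with another trypsinogen transcript, and 2.31% of those of *Try4* and of *Try5* were shared between these paralogs. For *Prss3* the shared part was 66.0% and for *Gm10334* 47.9%, with *Gm5771* and *Prss1*, neighbouring trypsinogen genes, as further holders of the same stretches. Allowing 2 mismatches, 0.33% of the stretches of *Prss2*, 52.8% of *Try4*, 29.0% of *Try5*, 84.8% of *Gm10334* and all of *Prss3* had a match elsewhere. Among the trypsinogens, reads of *Prss2* can therefore be assigned to 1 gene, those of *Try4* and *Try5* to 1 gene where a read covers a differing base without error, and counts of *Prss3* and *Gm10334* are uncertain throughout and are best read together. How the counting treated reads that match several paralogs equally is not given in the sources used here.

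*Prss2* and *Try4* were the most abundant members and ranked 2 to 5 among all 19945 genes in both acinar clusters of both libraries. *Prss2* was at 76970.5 CPM in vehicle and 73080 CPM in FAKi acinar cluster 2, and *Try4* at 71737 and 69532. *Try5* was at 22908.5 and 30979 CPM, at rank 14 and 9. *Spink1* was at 1963 and 1975 CPM, at rank 30 in both libraries. *Prss3* (190 and 336) and *Gm10334* (52.0 and 155) were lower than *Prss2* and *Try4* by orders of magnitude. Of their stretches examined, 66.0% and 47.9% were shared with other genes, and the *Prss3* transcript examined has 0 bases after its stop codon. Whether this lowered their counts was not tested. The chemistry counts 3′ ends, so that these levels carry no scaling by transcript length.

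In acinar cluster 1 *Try4* was the most abundant member, at 69359 CPM (vehicle) and 45668.5 (FAKi), followed by *Prss2* at 50657 and 38990.5. *Try5* was at 15276 and 18050, and *Spink1* at 1304 and 970 CPM. *Prss3* was at 459 and 453 and *Gm10334* at 108 and 419. Every acinar cell of both clusters held at least 1 trypsinogen UMI, with medians per cell of 1234 (vehicle) and 1071.5 (FAKi) in acinar cluster 2 and of 234 and 126 in acinar cluster 1. Together the 5 paralogs made up 17.2% and 17.4% of all UMIs in acinar cluster 2, and 13.6% and 10.4% in acinar cluster 1.

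Outside the acinar clusters *Prss2* and *Try4* stood over *Try5*, and *Try5* over *Spink1*, with the FAKi ductal cluster as the exception: there *Try5* (1557 CPM) lay above *Prss2* (1308) and *Try4* (1079). Of the nonacinar clusters, α-cell cluster 9 held the most of the 5 paralogs together in both libraries, at 10860 (vehicle) and 9320 CPM (FAKi). β-cell cluster 1 came next in the vehicle library, at 3491 CPM. In the FAKi library, at 2917 CPM, it came after macrophages (6626), fibroblasts (5710), pericytes (5437), B cells (4626, from 9 cells) and ductal cells (3946). That order rests on few droplets, since without the 10 richest of each cluster β-cell cluster 1 was at 2321 CPM, over pericytes (1545), ductal cells (1253), fibroblasts (857) and macrophages (575). They were lowest in β-cell cluster 0, at 60.7 and 128 CPM. In endothelial and immune cells, which do not make trypsinogen, they were at 1453 and 3085 CPM. These cells had a median of 1 trypsinogen UMI with vehicle and 3 with FAKi, and 66.0% and 91.1% of them held at least 1. The median depth of the largest of these clusters, endothelial cluster 3, was 5307 and 4710 UMIs. One FAKi macrophage droplet alone held 2555 trypsinogen UMIs of 24610, beside 491 *Cpa1*, 68 *Lyz2* and 13 *C1qa* UMIs, and 1 FAKi fibroblast droplet held 1687 of 14731.

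**Figure D1:**
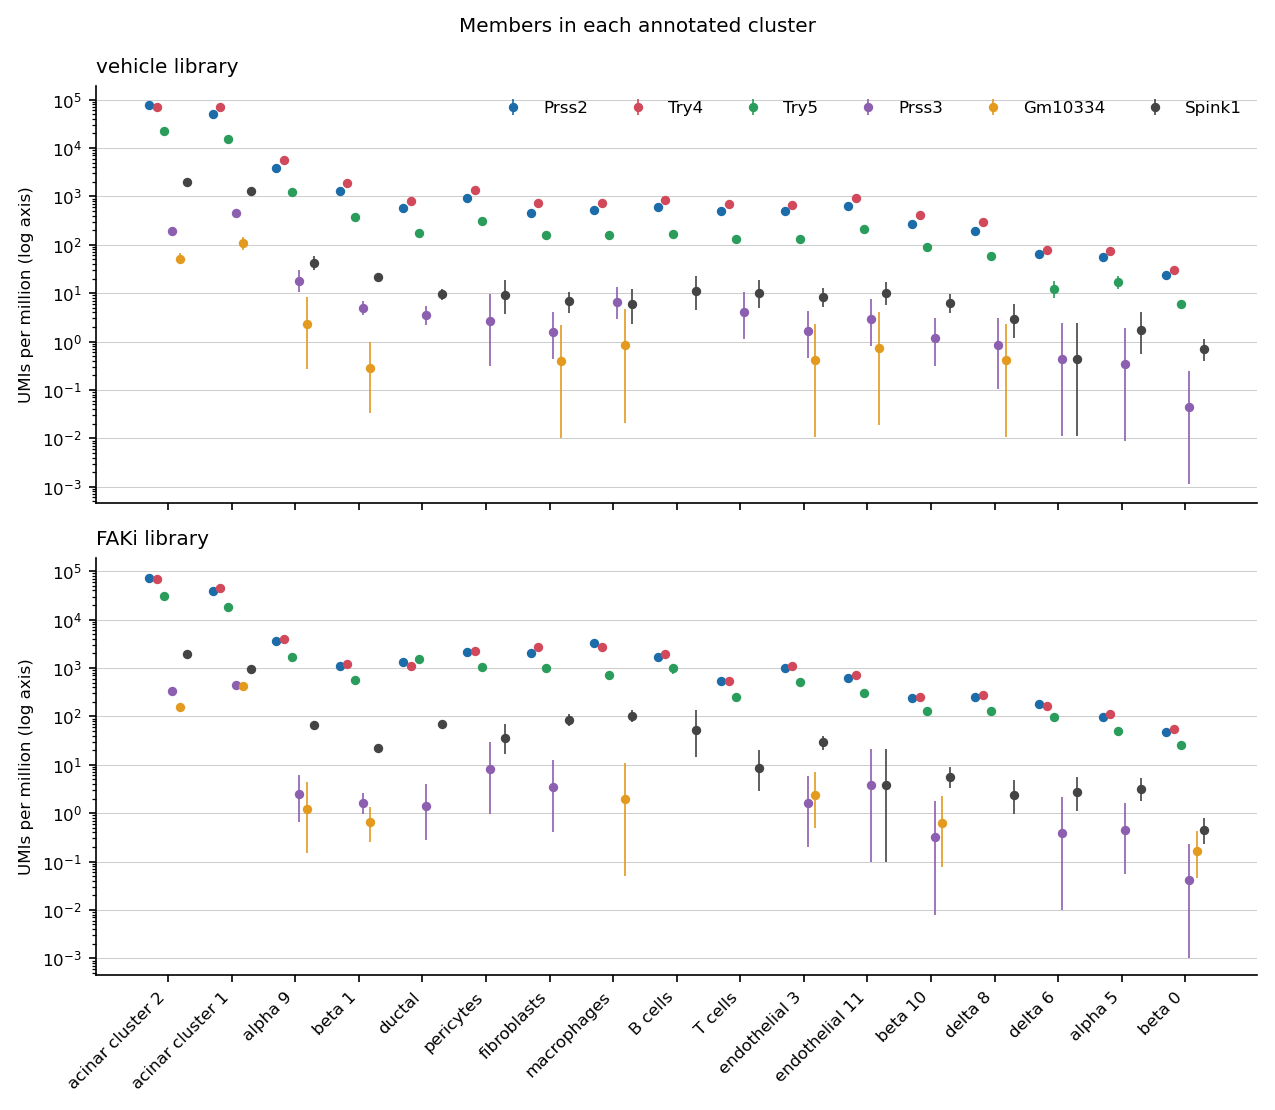
Level of each member in the 17 annotated clusters of the vehicle (top) and FAKi (bottom) library, in CPM on a log axis, with exact Poisson 95% intervals. Points absent from a column are counts of 0. *Prss2* (76970.5 in vehicle acinar cluster 2) and *Try4* (71737) lie far above *Spink1* (1963), and all members drop from the acinar clusters to β-cell cluster 0.

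*Prss3* and *Gm10334* were hardly counted outside acinar cells. In endothelial and immune cells *Prss3* had 20 UMIs in 953 vehicle and 3 UMIs in 361 FAKi cells, and *Gm10334* had 3 and 4. The ductal cluster held 22 and 3 *Prss3* UMIs and no *Gm10334* UMI, which by a limit of 3 counts allows up to 0.480 (vehicle) and 1.38 (FAKi) CPM. *Spink1* UMIs were found in 4.51% of vehicle and 9.42% of FAKi endothelial and immune cells, against 98.8% and 97.4% of the cells of acinar cluster 2. In endothelial and immune cells it was at 8.79 and 37.2 CPM.

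The mixture of paralogs was next compared between clusters. The part of free RNA in the mixtures outside acinar cells was not tested. *Prss2* made up 44.8%, *Try4* 41.7% and *Try5* 13.3% of the trypsinogen UMIs of vehicle acinar cluster 2. For acinar cluster 1 these shares were 37.3%, 51.0% and 11.2%. Vehicle endothelial and immune cells held 37.0%, 51.9% and 10.9%, closer to acinar cluster 1 than to acinar cluster 2. The ratio of *Prss2* to *Try4* gave the same picture. It was 1.07 (95% CI 1.06–1.08) in acinar cluster 2 and 0.730 (95% CI 0.716–0.745) in acinar cluster 1. In the 15 nonacinar clusters it ranged from 0.637 in fibroblasts to 0.842 in δ-cell cluster 6, with a median of 0.700, and lay below that of acinar cluster 2 in all 15.

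The FAKi library held another mixture, with more *Try5* and less *Try4*. In acinar cluster 2 *Prss2* made up 41.98%, *Try4* 39.9% and *Try5* 17.8%, and in acinar cluster 1 37.6%, 44.1% and 17.4%. The *Prss2* to *Try4* ratio was 1.05 (95% CI 1.04–1.06) in acinar cluster 2 and 0.854 (95% CI 0.840–0.867) in acinar cluster 1. Over the nonacinar clusters it ranged from 0.774 in fibroblasts to 1.22 in macrophages, with a median of 0.908, and 12 of 15 were below acinar cluster 2. FAKi endothelial and immune cells held 42.7%, 41.2% and 16.03%, closer to acinar cluster 2. Without their 10 richest droplets they held 37.5%, 42.9% and 19.5%, closer to acinar cluster 1. In the macrophage cluster the ratio rests mainly on the single droplet named above, which held 1340 *Prss2* and 986 *Try4* UMIs of the cluster's 1646 and 1350.

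The share of *Try5* was higher in the FAKi than in the vehicle library in 16 of 17 clusters, by a median of 8.84 percentage points, with macrophages (a difference of -0.0365 points) as the exception. The share of *Try4* was lower in all 17, with a median difference of -9.46 points. Without the 10 richest droplets of each cluster and library, a choice made after the data were seen, 14 clusters could be compared, and *Try5* was higher and *Try4* lower in all 14. The share of *Prss2* went either way, higher in 10 of 17 clusters. The clusters of a library share its free RNA, so that they are not independent observations of a condition. With 1 library for each condition, the libraries and the treatment cannot be told apart.

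**Figure D2:**
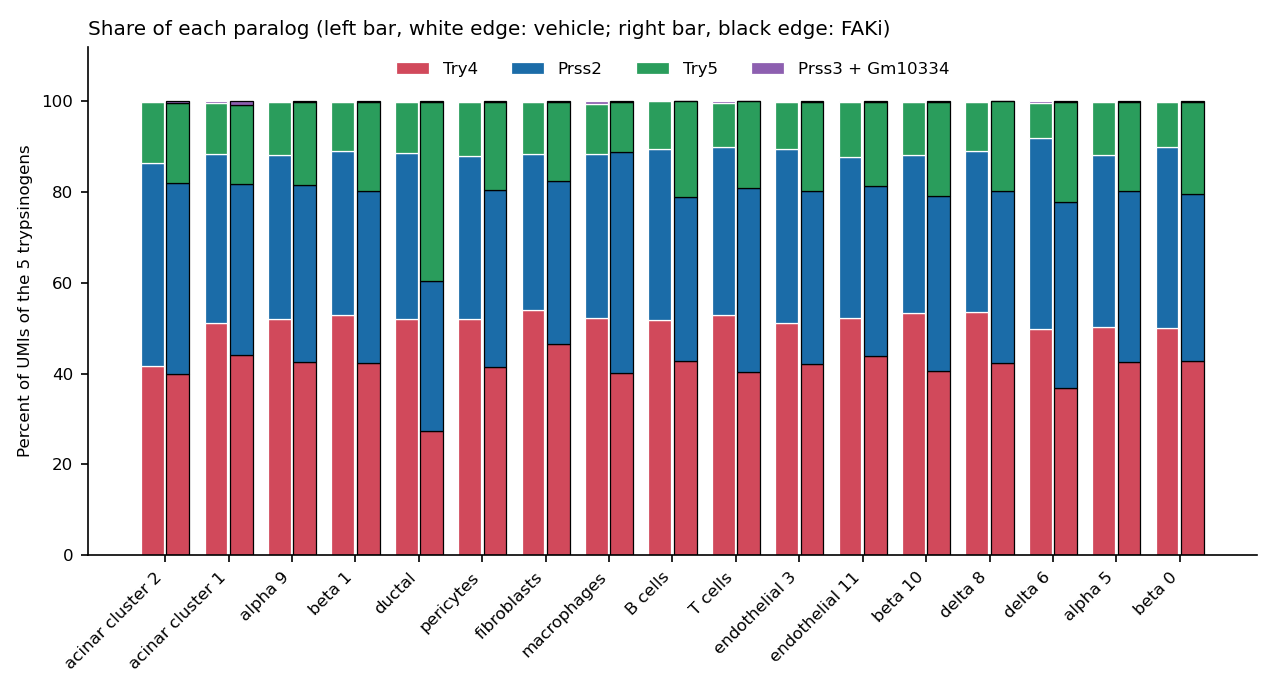
Percent of the UMIs of the 5 trypsinogens that each paralog took in every annotated cluster, with the vehicle library on the left and the FAKi library on the right of each pair. The *Try5* part is larger in the FAKi bar of 16 of 17 pairs, and the FAKi ductal bar stands apart with 39.5% *Try5*.

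The first comparison the study's clusters imply is between the acinar clusters within a library. The ratio of summed trypsinogen, cluster 1 over cluster 2, was 0.790 (95% CI 0.783–0.798) with vehicle and 0.595 (95% CI 0.590–0.600) with FAKi. The ratio of *Prss2* was 0.658 (95% CI 0.648–0.669) with vehicle and 0.533 (95% CI 0.527–0.540) with FAKi. *Try5* was at 0.667 and 0.583 times, and *Spink1* at 0.664 (95% CI 0.600–0.734) and 0.491 (95% CI 0.452–0.533) times. Of these 4 members *Try4* differed least, at 0.967 times in the vehicle library and 0.657 times in the FAKi library. Under 5 of the alternatives tried the vehicle ratio of *Try4* lay above 1 (1.02 to 1.15), so that its direction is not settled.

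Among the 369 genes with at least 100 UMIs in both vehicle clusters together, 10.8% were at least 1.5-fold lower and 32.8% at least 1.5-fold higher in acinar cluster 1. Of the 6 members, all of which reached 100 UMIs, 2 were past the lower limit (*Prss2* and *Spink1*), with *Try5* just short of it, and 2 past the higher (*Prss3* and *Gm10334*). Each of these calls was lost under an alternative, with *Prss2* at up to 0.811 and *Spink1* at up to 0.765 times, and with *Prss3* (2.41) at 1.18 and *Gm10334* (2.07) at 0.607 times at the lowest. The background shares also depend on the limits, as 54.4% in place of 32.8% of genes were higher when 20 UMIs were enough. In the FAKi library, 14.3% of 567 genes were lower and 41.6% higher. There 4 members were lower (*Prss2*, *Try4*, *Try5* and *Spink1*) and *Gm10334* was higher, at 2.70 times. Without 6 droplets rich in *Prss3*, described further on, the FAKi ratio of *Gm10334* was 0.422 and that of *Prss3* 0.294 in place of 1.35, so that the direction of both rests on these droplets. With totals that leave out the 20 most abundant genes, *Prss2* (0.680), *Try4* (0.838) and *Try5* (0.743) were no longer past the limit. The median log2 ratio of all genes tested was 0.20 with vehicle and 0.36 with FAKi, so that CPM of most genes were higher in the shallower cluster. The β-cell markers given above took more of the UMIs of acinar cluster 1 in both libraries, and their part in these ratios was not tested.

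Other digestive zymogens were also lower in acinar cluster 1. Of the 12 listed zymogens that trypsin activates, 11 had at least 100 UMIs. Of these 11, 4 were at least 1.5-fold lower than in acinar cluster 2 with vehicle (median log2 ratio -0.49) and 11 of 11 with FAKi (median -0.845). With totals that leave out the 20 most abundant genes, only 1 of 11 with vehicle (*Cpb1*) and 2 of 11 with FAKi (*Cpb1* and *Clps*) were past this limit. The chymotrypsinogen *Ctrb1* was at 0.604 and 0.527 times, and the procarboxypeptidase *Cpb1* at 0.539 and 0.514 times. Relative to these zymogens trypsinogen was higher in acinar cluster 1, with 46.95 trypsinogen UMIs per 100 zymogen UMIs with vehicle and 44.1 with FAKi, against 39.8 and 40.4 in acinar cluster 2. A pair of further trypsinogen genes had enough UMIs in both libraries. *Try10* was at 0.657 and 0.337 times and *2210010C04Rik* at 0.708 and 0.525 times. *Gm5771* had enough in the FAKi library and was at 3.03 times there. This rests on the droplets rich in *Prss3*. Without them *Gm5771* was at 8.27 CPM in acinar cluster 1 and 20.6 CPM in acinar cluster 2.

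*Spink1* was read against its target. Cells of acinar cluster 2 held 1.14 (95% CI 1.10–1.19) *Spink1* UMIs per 100 trypsinogen UMIs in the vehicle arm and 1.13 (95% CI 1.09–1.18) in the FAKi arm. For acinar cluster 1 the values were 0.959 (95% CI 0.874–1.05) and 0.937 (95% CI 0.869–1.01). The FAKi to vehicle ratio of this quotient was 0.993 (95% CI 0.941–1.05) in acinar cluster 2 and 0.976 (95% CI 0.867–1.10) in acinar cluster 1. The direction in acinar cluster 1 turned with the processing, to 1.26 with the mean over cells and 1.21 with cells thinned to 1000 UMIs. In the 15 nonacinar clusters the quotient had a median of 0.599 with vehicle and 0.774 with FAKi, below that of acinar cluster 2 in 13 and 11 clusters. The single cells of acinar cluster 2 varied widely, from 0 to 5.98 *Spink1* UMIs per 100 trypsinogen UMIs with vehicle and from 0 to 7.12 with FAKi, with medians of 1.00 and 0.941. The median cell of acinar cluster 1 held a single *Spink1* UMI in both libraries, too few for a quotient per cell.

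The second comparison is between FAKi and vehicle within a cluster. Summed trypsinogen differed between the arms by a factor of 0.762 (95% CI 0.754–0.771) in acinar cluster 1 and of 1.01 (95% CI 1.007–1.019) in acinar cluster 2. Within acinar cluster 2, *Prss2* was at 0.949 (95% CI 0.941–0.958) and *Try4* at 0.969 (95% CI 0.961–0.978) times, while *Try5* was at 1.35 (95% CI 1.33–1.37) times, and at 1.80 times with the mean over cells. *Spink1* was at 1.01 (95% CI 0.954–1.06) times. Among 548 genes tested there, 8.21% were at least 1.5-fold higher and 3.47% at least 1.5-fold lower in the FAKi library, and of the 6 members *Prss3* and *Gm10334* were higher and none was lower. Both calls rest on few cells. Without the droplets rich in *Prss3*, *Prss3* was at 1.28 times. Without the 10 cells richest in the gene in each library, *Prss3* was at 0.627 and *Gm10334* at 0.587 times.

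The members of acinar cluster 1 differed more. *Prss2* was at 0.770 (95% CI 0.755–0.784), *Try4* at 0.658 (95% CI 0.648–0.669) and *Spink1* at 0.744 (95% CI 0.661–0.839) times their vehicle levels. *Try5* was at 1.18 (95% CI 1.14–1.22) times, the only one of these 4 that was higher. Of 370 genes tested, 8.38% were at least 1.5-fold lower and 11.6% at least 1.5-fold higher, and of the members *Try4* was lower and *Gm10334* higher. With totals that leave out the 20 most abundant genes *Try4* was at 0.739 times, short of the limit, and with a minimum of 20 UMIs 21.7% of genes were higher. The call of *Gm10334* (3.89) rests on few cells. It was at 0.307 times without the droplets rich in *Prss3*, and at 1.03 times without the 10 cells richest in the gene in each library. The β-cell markers stood at 252126 CPM in FAKi acinar cluster 1 against 157454 in the vehicle cluster. Per 100 zymogen UMIs, trypsinogen in acinar cluster 1 was at 0.940 (95% CI 0.929–0.951) times its vehicle value, nearer to 1 than the ratio of CPM. Of the 11 zymogens, 3 were at least 1.5-fold lower in acinar cluster 1: the proelastases *Cela2a* (0.661) and *Cela3b* (0.662) and the prophospholipase *Pla2g1b* (0.5645), of which only *Pla2g1b* was past it with totals that leave out the 20 genes. Within acinar cluster 2 only *Ctrc*, a chymotrypsinogen whose product degrades trypsinogen, was past the limit, at 1.62 (95% CI 1.59–1.65) times.

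**Figure D3:**
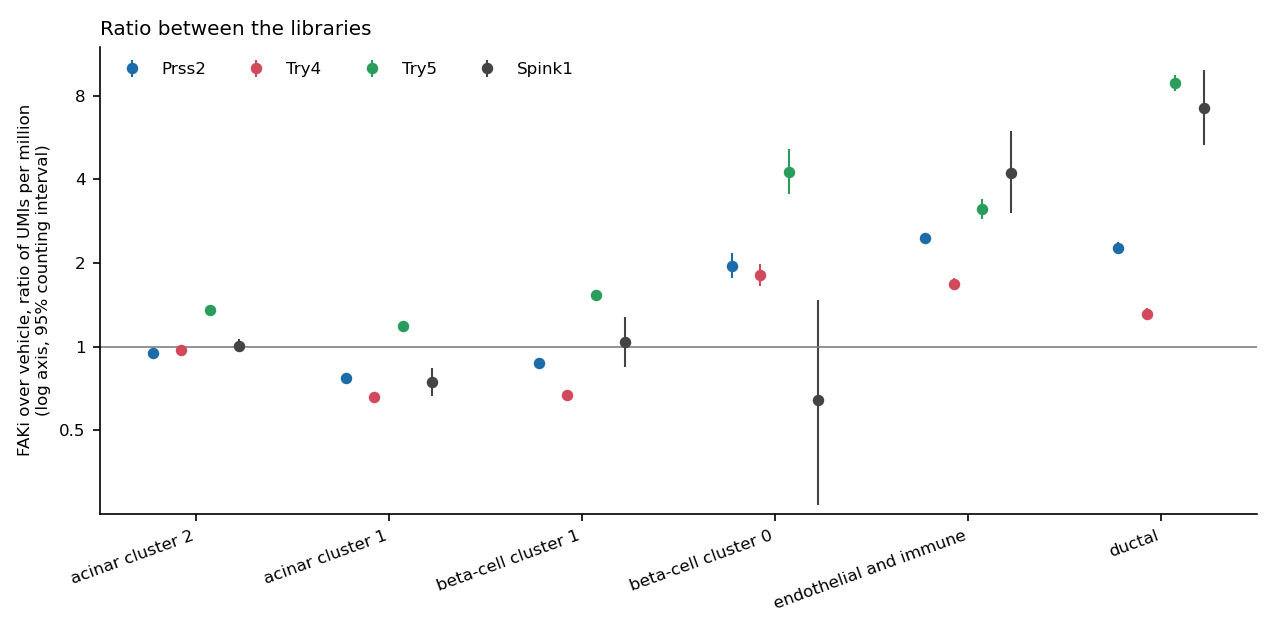
FAKi over vehicle ratio of CPM for *Prss2*, *Try4*, *Try5* and *Spink1* in 6 groups of cells, on a log axis, with exact 95% counting intervals and a line at 1. *Try5* lies above *Prss2* and *Try4* in every group, from 1.18 in acinar cluster 1 to 8.89 in ductal cells.

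The higher share of *Try5* was examined cell by cell. The median cell of acinar cluster 2 had 10.8% of its trypsinogen UMIs from *Try5* in the vehicle (lowest 3.42%, highest 20.9%) and 17.3% in the FAKi library (lowest 2.64%, highest 41.6%). Over cells of acinar cluster 1 with at least 20 trypsinogen UMIs, the medians were 10.9% and 19.6%. The libraries overlapped, and the FAKi cells spread further. A *Try5* share over 25% among cells with at least 100 trypsinogen UMIs, a limit set after the data were seen, was found in 0 of 86 vehicle and 33 of 114 FAKi cells of acinar cluster 2 (28.9%, Clopper-Pearson 95% CI 20.8–38.2%). The upper bound for the vehicle cells was 4.199%. The same held for 1 of 139 vehicle and 31 of 232 FAKi cells of acinar cluster 1 (13.4%, 95% CI 9.26–18.4%). Cells over this limit were also found in FAKi β-cell cluster 1 (5 of 36, against 0 of 72 vehicle cells) and α-cell cluster 9 (4 of 43, against 0 of 35). Reads of *Try5* match *Try4* within 2 mismatches in 29.0% of the stretches examined. The *Try5* to *Prss2* ratio was 0.298 in vehicle and 0.424 in FAKi acinar cluster 2. Whether *Try4* reads counted as *Try5* had a part in these values was not tested.

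**Figure D4:**
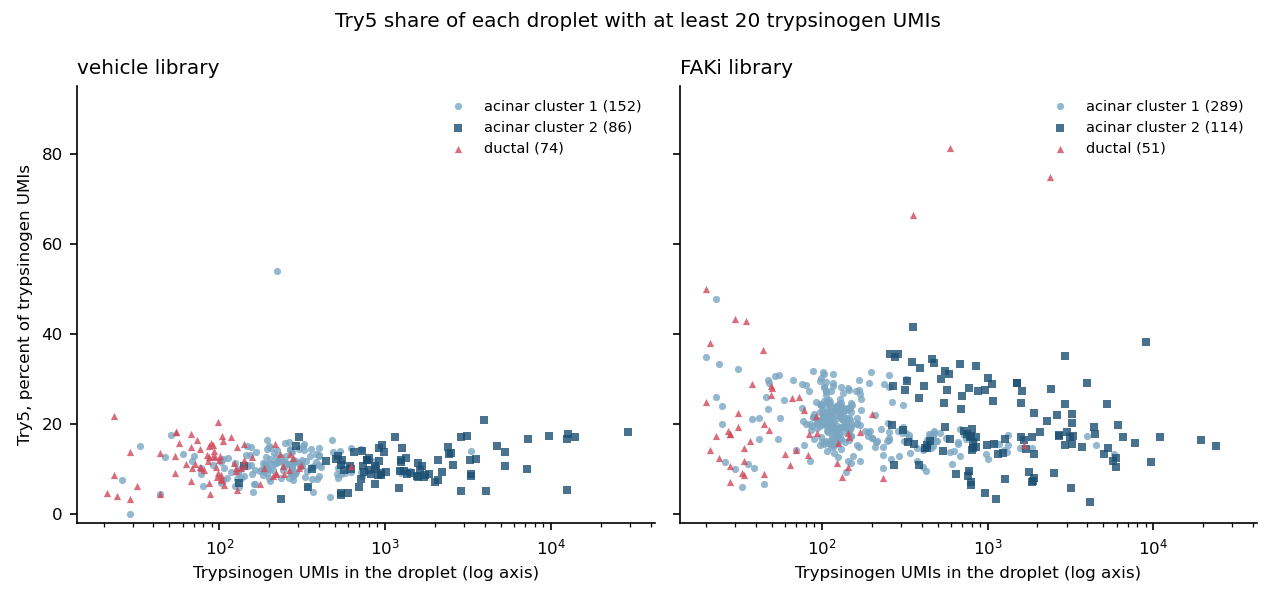
Percent of a droplet's trypsinogen UMIs that came from *Try5*, against its number of trypsinogen UMIs on a log axis, for acinar and ductal droplets with at least 20 such UMIs in the vehicle (left) and FAKi (right) library. Vehicle acinar droplets stay below 25% but for 1 at 54.1%, while FAKi droplets spread to 47.8% in acinar cluster 1 and 41.6% in acinar cluster 2, and 3 ductal droplets lie between 66.3% and 81.3%.

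In the ductal cluster, 3 FAKi droplets had more *Try5* than all other paralogs together. The first held 1773 *Try5*, 581 *Prss2*, 16 *Try4* and 71 *Spink1* UMIs among 38840, with 25 UMIs of the ductal keratin *Krt19* and 115 of *Krt8*. The second held 483, 110, 1 and 17 UMIs of the same members among 8136, and the third 236, 118, 2 and 15 among 2826. *Try4*, the most abundant paralog of the vehicle ductal cluster, was thus nearly absent from droplets rich in its closest relative. These 3 droplets held 73.7% of all *Try5* and 69.6% of all *Spink1* UMIs of the FAKi ductal cluster, but 0.811% of its *Try4* UMIs. The FAKi to vehicle ratio of *Try5* in ductal cells was 8.89 (95% CI 8.30–9.53) with them and 2.40 (95% CI 2.19–2.62) without them, and that of *Spink1* was 7.21 and 2.25. Summed trypsinogen was at 2.504 and 1.57 times its vehicle level. One vehicle droplet of acinar cluster 1 also had more *Try5* than all other paralogs together, but no *Krt19* or *Krt8* UMI, with 120 *Try5*, 90 *Prss2*, 12 *Try4* and 9 *Spink1* UMIs among 1354. These droplets were singled out after their values were seen.

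*Prss3* and *Gm10334* were concentrated in few cells of the FAKi library. Over 2038 droplets with at least 20 trypsinogen UMIs, *Prss3* made up more than 10% of trypsinogen in 6, all of them FAKi, 5 in acinar cluster 1 and 1 in acinar cluster 2. In these 6 droplets *Prss3* took 11.5 to 19.3% and *Gm10334* 14.2 to 17.9% of trypsinogen UMIs, and the next highest *Prss3* share in any droplet was 3.45%. The 5 droplets of acinar cluster 1 had 1383 to 2303 UMIs, and that of acinar cluster 2 had 3226. The FAKi medians of these clusters were 1140 and 7280.5 UMIs. The 6 droplets held 253 to 724 trypsinogen UMIs. They also held 9 to 21 UMIs of *Prss1* and 7 to 40 of *Gm5771*, the trypsinogen genes that share stretches with *Prss3* and *Gm10334*. In FAKi acinar cluster 1, the 5 droplets held 281 of 333 *Prss3*, 284 of 308 *Gm10334*, 57 of 57 *Prss1* and 99 of 105 *Gm5771* UMIs. Many stretches of *Prss3* and *Gm10334* are shared exactly with these genes or with each other, and how such reads were counted is not given. Which of these near-identical transcripts was present is therefore uncertain.

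Ratios of *Prss3* and *Gm10334* rest on these droplets. In acinar cluster 1 the FAKi to vehicle ratio of *Gm10334* was 3.89 (95% CI 2.77–5.61) with them and 0.307 (95% CI 0.176–0.525) without them. For *Prss3* it was 0.987 (95% CI 0.816–1.20) and 0.156 (95% CI 0.112–0.215). With the 6 droplets kept and cells thinned to 1000 UMIs, *Gm10334* was at 13.7 and *Prss3* at 2.71 times in acinar cluster 1, and *Gm10334* at 10.6 times in acinar cluster 2. All 6 droplets are FAKi, so that leaving them out trims 1 library. Without the 10 cells richest in the gene in each library, *Gm10334* was at 1.03 and *Prss3* at 0.253 times in acinar cluster 1, and at 0.587 and 0.627 times in acinar cluster 2. For acinar cluster 2 the ratio of *Gm10334* was 2.98 (95% CI 2.27–3.98) and 1.51, and that of *Prss3* 1.77 (95% CI 1.52–2.07) and 1.28. The vehicle values of acinar cluster 1 rest on few cells as well. The cell richest in *Prss3* held 77 of its 162 UMIs, and the cell richest in *Gm10334* held 18 of its 38. Leaving out the 6 droplets moved the ratios of the other members by little, *Try5* from 1.18 to 1.17 and *Prss2* from 0.770 to 0.771 in acinar cluster 1. This split was made after the data were seen.

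**Figure D5:**
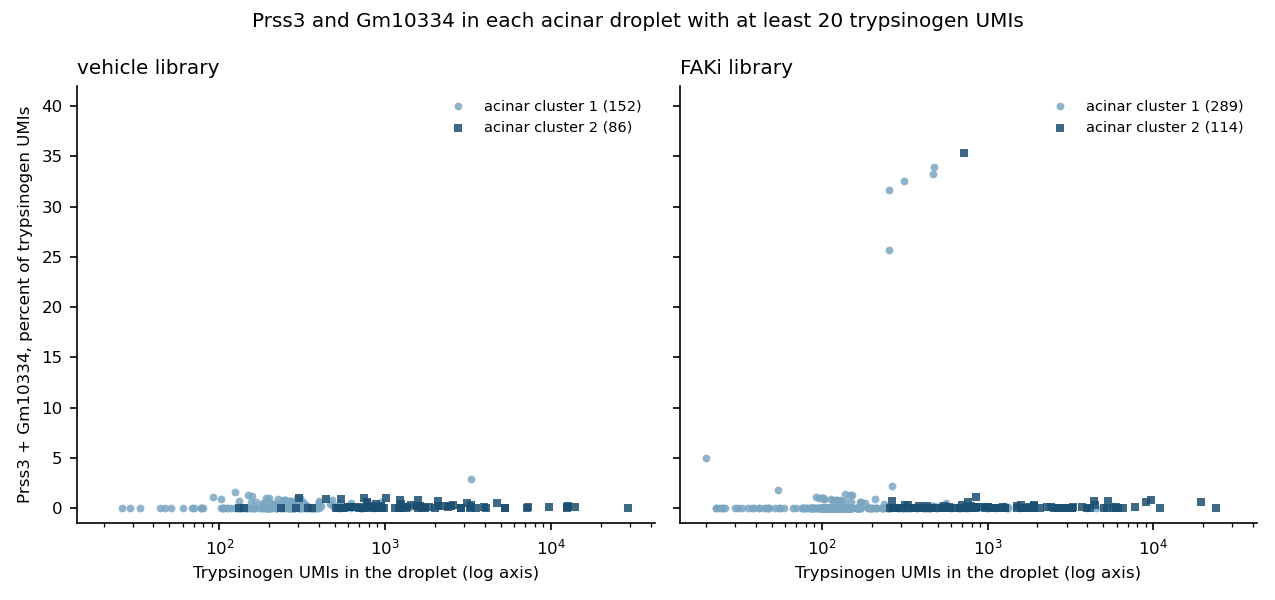
Percent of trypsinogen UMIs that came from *Prss3* and *Gm10334* together, against the trypsinogen UMIs of the droplet on a log axis, for acinar droplets with at least 20 such UMIs. In the FAKi library 6 droplets lie between 25.7% and 35.4%. Among all other droplets with at least 20 trypsinogen UMIs, acinar or not, *Prss3* alone reached at most 3.45% and *Gm10334* alone at most 5%.

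The levels in β-cells were compared between the 2 large β-cell clusters. Summed trypsinogen was 57.5 (95% CI 54.5–60.8) times higher in β-cell cluster 1 than in β-cell cluster 0 in the vehicle library and 22.7 (95% CI 21.9–23.6) times in the FAKi library. For *Try4* the ratios were 60.9 and 22.5, for *Try5* 61.3 and 22.0, and for *Spink1* 30.8 (95% CI 18.4–55.2) and 49.99 (95% CI 27.5–102). The sizes depend on how free RNA is treated. With each member's median UMIs in endothelial and immune cells subtracted, the ratios of summed trypsinogen were 108 and 154 and those of *Try4* 1105 and 43.6. With the median of summed trypsinogen subtracted instead, which takes 3 in place of 4 UMIs from each FAKi cell, the ratios of the sum were 108 and 61.1. With cells thinned to 1000 UMIs the vehicle ratio of *Spink1* was 10.98. Of 9490 genes tested in the vehicle library 0.906% were at least 1.5-fold higher in β-cell cluster 1, and of 9685 in the FAKi library 0.836%. All 4 members with at least 100 UMIs were among them in both libraries, as were 11 of the 11 listed zymogens. *Prss3* (36 against 1 UMI in the vehicle, 18 against 1 in the FAKi library) and *Gm10334* (2 against 0, and 7 against 4) were not tested.

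The mixture in β-cell cluster 1 also differed between the libraries. In the vehicle library 36.2% of its trypsinogen UMIs came from *Prss2*, 52.9% from *Try4* and 10.7% from *Try5*, and in the FAKi library 38.0%, 42.4% and 19.6%. It held 0.623 *Spink1* UMIs per 100 trypsinogen UMIs with vehicle and 0.774 with FAKi. The median cell held 52 trypsinogen UMIs of 20070 with vehicle and 39 of 16908 with FAKi, against 1 and 2 in β-cell cluster 0. Of 5 acinar transcription factors listed, *Ptf1a* had 3 UMIs in the 305 vehicle and 6 in the 546 FAKi cells of β-cell cluster 1, *Rbpjl* 6 and 10, *Nr5a2* 0 and 1 and *Gata4* 4 and 0. *Bhlha15* had 158 and 233 (21.9 and 21.5 CPM), near its 22.5 and 22.8 CPM in β-cell cluster 0.

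The second comparison was also made in β-cells. In β-cell cluster 0 summed trypsinogen was at 2.12 (95% CI 1.98–2.25) times its vehicle level after FAKi, with *Prss2* at 1.95, *Try4* at 1.81 and *Try5* at 4.26 times. *Spink1* had 16 vehicle and 11 FAKi UMIs there, a ratio of 0.639 (95% CI 0.268–1.47), and a difference could not be detected at these counts. In β-cell cluster 1 trypsinogen was at 0.835 (95% CI 0.822–0.849) times, with *Prss2* at 0.875, *Try4* at 0.669 and *Try5* at 1.53 times, and *Spink1* at 1.04 (95% CI 0.845–1.27) times. These directions depend on the processing. With each member's median in endothelial and immune cells subtracted, summed trypsinogen in β-cell cluster 0 was at 0.550 and *Try4* at 16.7 times, no *Prss2* or *Try5* being left in the FAKi library, and with the median of the sum subtracted summed trypsinogen was at 1.415 times. With the mean over cells and with cells thinned *Prss2* in β-cell cluster 1 was at 1.06 and 1.16 times. In β-cell cluster 0, 1.35% of 10300 genes were at least 1.5-fold higher in the FAKi library, and so were the 3 members tested (*Prss2*, *Try4* and *Try5*). Endothelial and immune cells, which should lack trypsinogen, showed 2.12 (95% CI 2.06–2.19) times as much in the FAKi library. There 4.19% of 8677 genes were at least 1.5-fold higher, and so were the 4 members tested: *Prss2* (2.45), *Try4* (1.68), *Try5* (3.13) and *Spink1* (4.23). These values rest in part on few droplets. Without the 10 richest of each library, summed trypsinogen was at 1.55, *Prss2* at 1.54, *Try4* at 1.28, *Try5* at 2.94 and *Spink1* at 2.35 times, so that *Try4* was no longer past the limit, while β-cell cluster 0 was at 2.37 times.

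The chymotrypsinogens *Ctrb1* and *Ctrc*, listed here with the zymogens, were at 76359 to 144792 and 10164 to 20911 CPM in the acinar clusters. The 4 genes listed as proteases acting on trypsinogen had few UMIs in acinar cells. *Tmprss15*, which encodes enteropeptidase, was at 0 in all acinar cells. *Ctsb*, whose product cathepsin B can activate trypsinogen, had 50 vehicle and 67 FAKi UMIs in acinar cluster 2 (ratio 1.15, 95% CI 0.782–1.69). *Ctsl*, whose product inactivates trypsinogen, had 76 and 81 (0.911, 95% CI 0.658–1.26), and *Ctsd*, whose product activates cathepsin B, had 70 and 81 (0.989, 95% CI 0.709–1.38). None of these 3, which reached 100 UMIs in that comparison, was past 1.5-fold. Between the acinar clusters *Ctsl* was higher in cluster 1, at 1.63 (95% CI 1.06–2.48) times with vehicle and 1.47 (95% CI 1.03–2.08) times with FAKi. Of 9 further inhibitors listed, 7 were in the table and only *Serpini2*, a serpin of acinar cells, reached 100 UMIs in acinar cluster 2. It was at 391 vehicle and 548 FAKi CPM in acinar cluster 2, a ratio of 1.40 (95% CI 1.25–1.57), and at 0.464 and 0.355 times that level in acinar cluster 1. *F2rl1*, the receptor that trypsin activates, had at most 2 UMIs in any acinar cluster.

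Transcription of acinar enzyme genes depends on PTF1, a complex of PTF1A, RBPJL and a ubiquitous E protein that binds an E-box, here searched as CACCTG, together with a TC-box, here searched as TTTCCC. *Ptf1a* had 45 vehicle and 57 FAKi UMIs in acinar cluster 2, a ratio of 1.08 (95% CI 0.720–1.64), and *Rbpjl* 46 and 81, a ratio of 1.505 (95% CI 1.04–2.21). Acinar cluster 1 had 17 and 9 *Ptf1a* UMIs, a ratio of 0.254 (95% CI 0.0999–0.603), and 16 and 21 *Rbpjl* UMIs, a ratio of 0.630 (95% CI 0.313–1.29), the latter with an interval that includes 1. The RefSeq promoter table (GRCm38.p6) had entries for *Prss2*, *Try4*, *Prss3* and *Gm10334*. The 250 bases before the start of the most abundant pair are shown because these paralogs are expressed at like levels. Capitals mark the letters TATAAA of a TATA box on the given strand, and the E-box and TC-box letters on either strand, none of which overlap.
Prss2 (GRCm38.p6 chr6:41521526-41521775, forward strand): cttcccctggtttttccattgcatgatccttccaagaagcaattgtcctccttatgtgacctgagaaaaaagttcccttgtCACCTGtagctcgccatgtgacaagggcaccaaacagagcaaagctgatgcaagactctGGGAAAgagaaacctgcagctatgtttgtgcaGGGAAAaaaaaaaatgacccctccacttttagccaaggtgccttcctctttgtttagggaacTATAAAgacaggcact
Try4 (GRCm38.p6 chr6:41302022-41302271, forward strand): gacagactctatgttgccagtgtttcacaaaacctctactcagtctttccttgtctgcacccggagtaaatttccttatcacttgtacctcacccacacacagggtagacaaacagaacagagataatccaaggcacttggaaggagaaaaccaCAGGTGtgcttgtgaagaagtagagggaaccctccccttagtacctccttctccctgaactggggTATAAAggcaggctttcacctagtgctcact

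All 4 promoters held 1 TATAAA and 1 CACCTG, the TATAAA 11 to 31 bases before the start. Over 32851 mouse promoters of the same length, 7.59% held TATAAA on the given strand, 17.2% held CACCTG on either strand, and 1.21% held both. TTTCCC was found only in *Prss2*, at 2 places, against 21.95% of all promoters, and all 3 words together in 0.265%. A match of letters is a description of the sequence and no evidence of binding, and the absence of these letters from a window says nothing of the factor.

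Across 22 groups (annotated cell types with at least 50 cells in a library), the genes whose level was most like summed trypsinogen, beside the members, were *Cpa1* (Pearson's r 0.999), *Sycn*, *Ctrb1* (both 0.998), *2210010C04Rik* and *Cela3b* (both 0.997). Those most like *Spink1* were *Rnase1* (0.993), *Pnliprp1* (0.989), *2210010C04Rik*, *Ctrc* and *Cpb1* (all 0.988). The paralogs are part of the sum, which alone brings r near 1 for the abundant ones: *Prss2* had r = 0.999 with summed trypsinogen, *Try4* 0.996, *Spink1* 0.985 and *Try5* 0.985, and *Prss3* (0.909) and *Gm10334* (0.903) were least alike. The points share libraries and free RNA, and most differences among them are between acinar and other clusters.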

How the data were processed

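Islet cells were captured with Chromium 3′ chemistry, and the authors counted UMIs per gene with Cell Ranger on mm10 (per the labels). The deposited counts are neither normalised nor corrected for free RNA. The authors filtered cells in Seurat 3.1 by detected genes and by the percent of mitochondrial UMIs, which is deposited for each cell with their clusters. The annotation used for counting is not given in the sources used here. For each annotated cluster of each library, UMIs were added up and scaled to the cluster's total (CPM). Intervals at 95% are exact: conditional binomial for ratios, Poisson for levels and Clopper-Pearson for shares. No test was made, as each condition has 1 library. Background shares of genes count those at least 1.5-fold apart with at least 100 UMIs over both groups. Members and gene lists were chosen with earlier results of these data known. The genes named beside the members were those of the lists, and the 5 genes most correlated with summed trypsinogen and with *Spink1* (log2 CPM with a pseudocount of 1). Gene models and sequences were read from GRCm38 and from RefSeq. Doublets were called with scrublet (seed 0) in scanpy 1.11.5 and kept, except in 1 alternative. Computations ran in Python 3.11.15 with biopython 1.88, matplotlib 3.10.9, pandas 2.3.3, scipy 1.17.1 and numpy 2.4.6. The intervals were tested on data simulated with counting error alone, which leave out the variation between cells.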

Additional observations from a re-analysis of the deposited data

Results flagged for a closer look

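Summed trypsinogen was at 0.762 times its vehicle level in acinar cluster 1, with β-cell markers at 25.2% of the UMIs of FAKi acinar cluster 1. It hardly differed in acinar cluster 2, at 1.013 times. There the 10 richest cells held 52.3% (vehicle) and 40.2% (FAKi) of these UMIs, and without them the levels were 154344 and 163067 CPM. In β-cells summed trypsinogen was at 2.115 times its vehicle level in cluster 0 and at 0.835 times in cluster 1. *Prss2* (1.95 and 0.875 times) and *Try4* (1.81 and 0.669 times) divided in the same way. Each of these came to notice because a pair of clusters lay on opposite sides of 1 with intervals that did not include it. With each member's median free RNA subtracted, β-cell cluster 0 came to 0.550 times, with *Try4* alone at 16.7 times, and with the median of the sum subtracted to 1.415 times. The differences between the clusters were not tested, since each condition has 1 library.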

How the results depend on the processing

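Of the 6 comparisons of summed trypsinogen and of *Spink1* per trypsinogen, each recomputed under 8 alternatives, 22 of 48 values stayed within the counting interval of the reported value, 26 moved beyond it and 0 changed direction with intervals apart from 1. For trypsinogen between FAKi and vehicle in acinar cluster 1, reported as 0.762, the moved values were 0.856 with totals without the 20 most abundant genes, 0.717 in cells under 5% mitochondrial UMIs, 0.733 with cells thinned to 1000 UMIs, 0.753 with the median free RNA subtracted and 0.719 with the mean subtracted. In acinar cluster 2 (1.013) they were 1.025 with the mean over cells, 1.027 without the 20 genes, 1.022 thinned and 1.007 with mean subtraction. For acinar cluster 1 over 2 in the vehicle library (0.790) they were 0.892 with the mean over cells, 0.910 without the 20 genes, 0.827 under 5% mitochondrial UMIs, 0.957 thinned, 0.952 in cells under 1000 detected genes and 0.767 with mean subtraction. In the FAKi library (0.595) they were 0.660, 0.759, 0.583, 0.686, 0.714 and 0.548 under the same settings, and 0.587 with median subtraction. *Spink1* per trypsinogen between FAKi and vehicle moved in acinar cluster 1 (0.976) to 1.26 with the mean over cells, 1.21 thinned and 1.11 under 1000 detected genes, and in acinar cluster 2 (0.993) to 1.06 thinned. Totals without the 20 genes moved the log2 ratio of every gene alike, by 0.17 between the libraries in acinar cluster 1, by 0.20 between the acinar clusters in the vehicle and by 0.35 in the FAKi library.

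Of 391 further ratios of members or summed trypsinogen, 17 lay on the other side of 1 from a reported ratio whose interval leaves out 1. Ratios whose interval holds 1 were not counted. *Try4* in acinar cluster 1 over 2 of the vehicle library (0.967) was at 1.059 with the mean over cells, 1.114 without the 20 genes, 1.016 under 5% mitochondrial UMIs, 1.149 thinned and 1.088 in cells under 1000 detected genes. *Gm10334* was at 0.999 with the mean over cells and 0.746 under 1000 detected genes in the same comparison (2.07), and at 0.307 without the 6 droplets rich in *Prss3* between FAKi and vehicle in acinar cluster 1 (3.89). Without these droplets *Gm10334* (2.70) and *Prss3* (1.35) in acinar cluster 1 over 2 of the FAKi library were at 0.422 and 0.294. Without the 10 cells richest in the gene, *Prss3* was at 0.684 in that comparison and at 0.627 between FAKi and vehicle in acinar cluster 2 (1.77), and *Gm10334* at 0.587 in the latter (2.98) and at 0.607 in acinar cluster 1 over 2 of the vehicle library. Between FAKi and vehicle, *Prss2* in β-cell cluster 1 (0.875) was at 1.062 with the mean over cells and 1.162 thinned, and summed trypsinogen in β-cell cluster 0 (2.115) at 0.550 with each member's median free RNA subtracted, which left no *Prss2* or *Try5* there in the FAKi library, and at 1.415 with the median of the sum subtracted. The β-cell ratios of summed trypsinogen (57.5 and 22.7) came to 108 and 154 with each member's median free RNA subtracted, and to 108 and 61.1 with the median of the sum subtracted. Of 1205 paralog shares 271 moved. The background percents of genes past 1.5-fold moved by over 1.5 times in 21 of 24 recomputations. With a minimum of 20 in place of 100 UMIs, genes higher in acinar cluster 1 came to 54.4% (vehicle, 32.8%) and 58.55% (FAKi, 41.6%) and lower to 9.07% (10.8%) and 8.235% (14.3%). Between FAKi and vehicle they came to 21.7% higher (11.6%) and 11.03% lower (8.38%) in acinar cluster 1, 17.4% (8.21%) and 9.59% (3.47%) in acinar cluster 2, 3.68% higher (1.35%) in β-cell cluster 0 and 8.21% (4.19%) in endothelial and immune cells, and between the β-cell clusters to 3.24% (0.906%) and 2.58% (0.836%). With a 2-fold limit they were, in the same order, 21.1%, 25.2%, 4.34%, 6.17%, 2.16%, 1.35%, 1.64%, 0.730%, 0.340%, 1.46%, 0.495% and 0.351%. Subtracting the mean free RNA or the median of the sum, the limit on detected genes and the splits by *Prss3*, *Try5*, the 10 richest droplets and the 10 cells richest in a gene were chosen after the data were seen. The causes were not tested.

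Thinning left out 26 vehicle and 89 FAKi cells of acinar cluster 1. Depth limits *Prss3*, *Gm10334* and *Spink1* outside acinar cells, and many reads of *Prss3* and *Gm10334* match both. No paired analysis was possible because the numbers shared by the samples are sequencing lanes, which the count table pools. For the same reason no replicate could be left out.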
